A study of Mus musculus with 9 samples.

Results

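The genes described here are 10 components of bone morphogenetic protein (BMP) signalling and its readout in the embryonic mouse cortex. They are the ligand *Bmp7*, the type I receptors *Bmpr1a* and *Bmpr1b*, the signal transducer *Smad1*, the inhibitory genes *Smad6* and *Smad7*, and the target genes *Id1*, *Id2*, *Id3* and *Id4*. They were picked by symbol from the deposited expression table, each symbol filled 1 row, and they make up 10 of its 14670 genes. BMP ligands bring type I and type II receptor kinases together at the cell surface, and the type I receptor then phosphorylates SMAD1, SMAD5 and SMAD8, which enter the nucleus with SMAD4. Inhibitory SMADs block this step, and the Id genes are classic direct targets. Id proteins have a helix-loop-helix domain but no DNA-binding part, and by pairing with E proteins they keep these from the proneural bHLH factors; in the embryonic forebrain, BMP signals and Id proteins are known for their roles in progenitor maintenance, in the timing of neurogenesis and in astrocyte formation.

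RNA of the cerebral cortex at embryonic day 16.5 was sequenced in 9 libraries, 3 from each of 3 genotypes, to find transcripts that differ in mice without *Fzd3*, a Frizzled-type Wnt receptor, or without *Celsr3*, a cadherin of the planar polarity system. The labels name the genotypes Fzd3 -/- mutant, Celsr3 -/- mutant and Control +/+, whereas the methods describe controls as littermates that were either wild type or heterozygous. Both mutant lines were kept on a mixed background of C57Bl/6 and CD1, and the mutations are carried by all cells of the embryo. The study's text speaks of exon 3 as missing from its *Fzd3* mutant allele, in a passage on a Cre-dependent line that was not sequenced here, and the methods section does not say how the -/- alleles were made. Trizol is named for RNA extraction in the labels and an RNeasy kit in the methods. Nothing states which embryos, litters or sexes gave the libraries or whether embryos were pooled, so every p-value here measures the spread between these samples only. The replicates are numbered 1, 2 and 3 in the controls and *Fzd3* mutants and 1, 2 and 4 in the *Celsr3* mutants.

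Expression is given in CPM, the reads of a gene scaled to library size, as deposited. All values (100%) of each library could be written as a step size times a whole number, within a tolerance of 0.1 of the step. If the step is 1 read, the control libraries held 52266343, 61637620 and 39857305 reads, the *Fzd3* mutants 42963626, 45848828 and 52249431, and the *Celsr3* mutants 60333846, 54974978 and 69600591. A level of 3 reads then lies between 0.0427 and 0.0752 CPM, which covers counting error only, and each of the 10 genes was above it in all 9 libraries. Genotypes were compared with limma on log2(CPM + 0.5) in 1 fit of the 9 libraries, two-sided, with p-values adjusted over the 14670 genes and a threshold of 0.05. Both mutants were set against the same 3 control libraries, so their comparisons are not independent, and the mutants were also compared directly.

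The targeted genes were read before the BMP genes. *Celsr3* (XLOC_033590) was at 196, 243 and 214 CPM among controls and at 122, 139 and 118 CPM among *Celsr3* mutants. The groups did not overlap, and *Celsr3* fell by 0.78 on the log2 scale (SE 0.09, limma adjusted p = 0.0018, n = 3 per genotype). *Fzd3* (XLOC_010468) was at 58.0, 67.7 and 46.9 CPM among controls and at 46.5, 39.8 and 59.6 CPM among *Fzd3* mutants. These ranges overlapped (log2 fold change -0.24, SE 0.15, limma adjusted p = 0.24), so the level of *Fzd3* RNA did not separate the libraries by their label. With 1 value per gene, the deposited data cannot show a missing exon.

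The cortical label was checked with marker lists. All 10 of 10 markers of cortical excitatory neurons and all 11 of 11 markers of radial glia, the apical progenitors of the cortex, were in the table, and 0 of either list were at 0 CPM in any library. Only 2 to 8 of all 14670 genes were at 0 CPM in each library. Values above 0 are thus shared with nearly all listed genes and do not set cortex apart. *Neurod6* was the most abundant of the neuronal markers and *Fabp7* of the radial glial ones. The neuronal markers summed to between 3111 and 3546 CPM in controls, 3100.3 and 3169 CPM in *Fzd3* mutants and 3440.5 and 3542 CPM in *Celsr3* mutants.

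*Celsr3* mutant replicate 4 differed from the other libraries in its high genes. In it, 67 genes were at least 2-fold above the mean of the other libraries of its genotype, against 8 to 48 genes in each other library. Only 11 were at least 2-fold below, against 3 to 53, and in both directions together it had 78 genes, beside 77 in control replicates 2 and 3. Markers of meningeal fibroblasts, the cells of the membranes around the brain, were among its high genes. Of 12 such markers 7 were in the table (*Lum*, *Foxc2*, *Foxd1*, *Crabp2* and *Aldh1a2* were not analysed here), and 6 of the 7 were highest in this library. Their summed level was 24.1, 26.8 and 25.2 CPM among controls, 31.4, 36.3 and 31.8 CPM among *Fzd3* mutants, and 26.8, 27.0 and 191 CPM among *Celsr3* mutants. *Col3a1*, the most abundant of them on average, was at 6.86 and 4.95 CPM in *Celsr3* mutant replicates 1 and 2 and at 87.6 CPM in replicate 4. Of the 7, 0 were at 0 CPM in any library. The summed markers of pericytes (121 CPM, 89.9 to 114 CPM in the other 8 libraries), of intermediate progenitors (656 CPM, at most 640.4 CPM elsewhere) and of red blood cells (2538 CPM, at most 2444 CPM elsewhere) were highest there too, with 3 of 7, 4 of 6 and 4 of 7 markers highest in it, and *Rgs5*, *Elavl4* and *Hba-a1* as the most abundant. The endothelial sum was 252 CPM there and 208 and 188 CPM in its companions, with 5 of 11 markers highest in it. Of all 14670 genes, 1608 were highest in this library. Of the 10 BMP genes, 5 were: *Id1*, *Id3*, *Id4*, *Bmp7* and *Smad6*. Fold changes of these genes that involve the *Celsr3* mutants are therefore given with and without it.

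In the *Fzd3* mutants 3 of the 10 genes passed the threshold: *Id4* and *Bmpr1a* fell and *Id2* rose. This is 30% of the genes, beside 29.8% of all 14670 genes in the same comparison. In the lower direction it is 2 of 10, beside 14.8% of all genes, and in the higher direction 1 of 10, beside 15%. The count is thus near that of the whole table and is not a property of the set. The median log2 fold change of the 10 genes was 0.01, beside -0.00 over all genes. Among the *Celsr3* mutants 0 of 10 genes passed in limma, beside 0.307% of all genes (45 of 14670), and 0 passed when limma was run with voom weights. At an unadjusted p under 0.05 the count was 0 of 10, beside 800 of 14670 over all genes. The *Fzd3* mutants compared directly with the *Celsr3* mutants gave 3 of 10 genes, beside 29.6% of all genes, with *Id4* and *Bmpr1a* lower (14.3% of all genes were lower) and *Id2* higher (15.3% were higher).

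**Figure D1:**
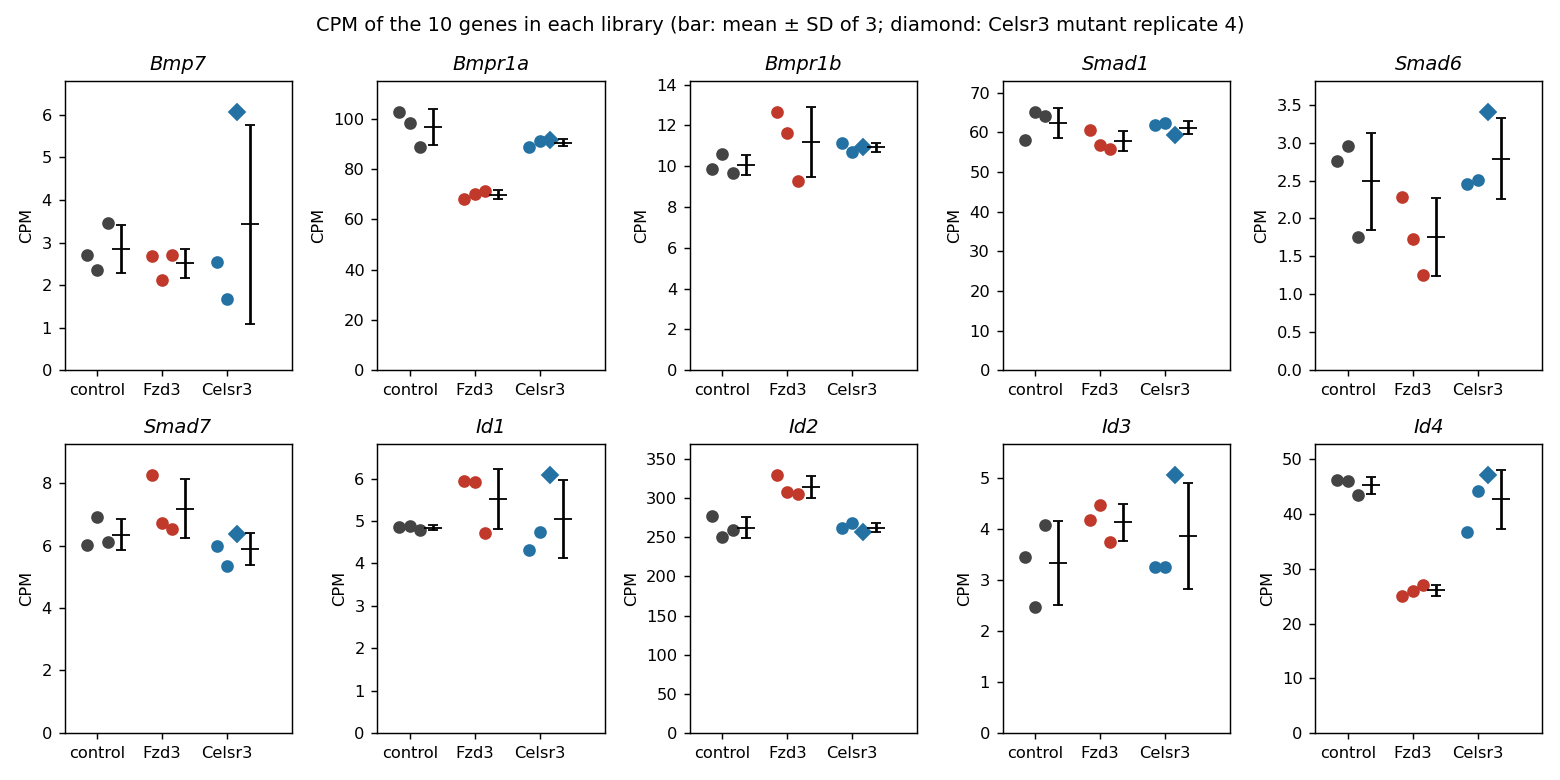
CPM of the 10 genes in each library, with the mean and SD of 3 libraries beside each genotype; the diamond is *Celsr3* mutant replicate 4. *Id4* lies between 25.1 and 27.1 CPM among *Fzd3* mutants and between 36.7 and 47.2 CPM in the other 6 libraries.

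The control levels of the 10 genes were ordered after division by the length of the annotated exons, since CPM does not correct for length. *Id2* stood highest at 107 CPM per kb (SD 5.49, n = 3). *Bmpr1a* followed at 15.2 CPM per kb (SD 1.11), *Id4* at 11.8 (SD 0.397) and *Smad1* at 9.97 (SD 0.608), and the control ranges of these neighbours did not overlap. *Id1* was at 4.18 CPM per kb (SD 0.0448). *Id3* at 1.86 (SD 0.457) and *Bmpr1b* at 1.68 (SD 0.0829) had overlapping ranges and cannot be ordered. *Smad7* was at 1.41 CPM per kb (SD 0.111), below *Bmpr1b* but overlapping *Id3* in range. *Smad6* at 0.777 (SD 0.201) and *Bmp7* at 0.707 (SD 0.140) overlapped as well. The genes thus fell into a group of 4 at 9.97 CPM per kb or more, which held the 3 genes that changed in the *Fzd3* mutants, and a group of 6 at 4.18 CPM per kb or less.

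*Bmp7* (XLOC_019645), the secreted ligand of the set, was at 2.70, 2.36 and 3.46 CPM among controls, 2.69, 2.1 and 2.71 CPM among *Fzd3* mutants and 2.54, 1.67 and 6.07 CPM among *Celsr3* mutants. The groups overlapped, and the highest value was that of *Celsr3* mutant replicate 4. Its log2 fold change was -0.15 in the *Fzd3* mutants (limma adjusted p = 0.768) and 0.08 in the *Celsr3* mutants (1.0), with 95% intervals of -0.85 to 0.56 and -0.62 to 0.79. Without replicate 4 the *Celsr3* value turned to -0.37 (limma adjusted p = 0.999; 0.993 to 1 over its 22 alternative fits). In all, 4 of the 22 gave the other sign: this one, that without control replicate 2 (-0.02) and the 2 with a replicate block (-0.28 and -0.27), so its direction is not settled. Against the *Celsr3* mutants the *Fzd3* mutants were at -0.23 (0.632), and at 0.22 (0.465) without replicate 4. The meningeal, pericyte and other sums given above were high in the same library, and their part in the level of *Bmp7* was not tested.

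*Bmpr1a* (XLOC_010111, GRCm38 chr14:34410734-34503341) encodes the type I receptor kinase that BMP2 and BMP4 bind with high affinity. It was at 103, 98.4 and 88.8 CPM among controls, at 67.9, 69.9 and 71.4 CPM among *Fzd3* mutants and at 88.8, 90.9 and 91.6 CPM among *Celsr3* mutants. All 3 *Fzd3* mutant libraries lay below all 6 others, and the *Celsr3* mutants overlapped the lowest control. From a control mean of 96.6 ± 7.04 CPM (SD, n = 3) it fell to 69.7 ± 1.76 CPM among *Fzd3* mutants, a difference in mean CPM of -27.8%. The log2 fold change was -0.46 (SE 0.05, 95% interval -0.58 to -0.35, limma adjusted p = 0.000144). In the *Celsr3* mutants it was -0.09 (95% interval -0.21 to 0.02, limma adjusted p = 0.984), and -0.10 (0.999) without replicate 4. Set against the *Celsr3* mutants, the *Fzd3* mutants were at -0.37 (95% interval -0.49 to -0.26, limma adjusted p = 0.000636), and at -0.36 (0.00355) without *Celsr3* mutant replicate 4, with adjusted p from 0.000131 to 0.0179 over 23 alternative fits. *Gm17110* shares 290 bases of exon with *Bmpr1a* on the opposite strand, and whether reads were assigned by strand is not stated; *Gm17110* is not in the table and was not analysed here.

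*Bmpr1b* (XLOC_021340), the other type I receptor of the set, was at 9.85, 10.6 and 9.68 CPM among controls, 12.7, 11.6 and 9.28 CPM among *Fzd3* mutants and 11.1, 10.7 and 11 CPM among *Celsr3* mutants. In the *Fzd3* mutants replicates 1 and 2 were above every control and replicate 3 below every control. The log2 fold change was 0.14 (limma adjusted p = 0.359); without *Fzd3* mutant replicate 3 it was 0.26 and passed the threshold (0.0475; 0.0475 to 0.795 over 23 alternative fits). All 3 *Celsr3* mutant libraries lay above all 3 controls, yet by a log2 fold change of 0.12 (limma adjusted p = 1.0), and 0.12 (0.999) without replicate 4. Between the mutants it was 0.02 (0.906), and 0.02 (0.922) without replicate 4.

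*Acvr1*, which encodes the receptor ALK2 and belongs to the list of other BMP receptors, was at 65.6, 65.1 and 57.9 CPM among controls and at 80.2, 79.7 and 77.3 CPM among *Fzd3* mutants, and rose (log2 fold change 0.33, SE 0.05, limma adjusted p = 0.00101). Per kb of exon, *Bmpr1a* made up 50.4% to 51.5% of the sum of *Bmpr1a*, *Bmpr1b* and *Acvr1* in controls, 36.3% to 39.0% in *Fzd3* mutants and 48.2% to 48.5% in *Celsr3* mutants. *Acvr1* made up 43.3% to 43.9%, 55.6% to 56.5% and 45.3% to 45.8%. *Acvr1* was thus the larger share in each *Fzd3* mutant library and *Bmpr1a* in each of the other 6. The sum of the 3 receptors was 27.6 to 31.4 CPM per kb in controls, 28.8 to 29.5 in *Fzd3* mutants and 29.0 to 29.7 in *Celsr3* mutants, with overlapping ranges. These shares were formed after the values were seen and carry no test of their own.

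*Smad1* (XLOC_032479), which the activated receptors phosphorylate, was at 58.1, 65.1 and 64.1 CPM among controls and at 60.6, 56.9 and 55.9 CPM among *Fzd3* mutants. In the *Celsr3* mutants it was at 61.9, 62.3 and 59.3 CPM. The groups overlapped, with log2 fold changes of -0.11 (95% interval -0.23 to 0.01, limma adjusted p = 0.161) and -0.03 (-0.15 to 0.09, 1.0), the latter -0.01 (0.999) without *Celsr3* mutant replicate 4. Between the mutants it was -0.08 (0.304), and -0.10 (0.278) without that library.

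*Smad6* (XLOC_034159) and *Smad7* (XLOC_014872) encode the inhibitory SMADs, which are themselves induced by the signals they dampen. *Smad6* was at 2.76, 2.96 and 1.76 CPM among controls, 2.28, 1.73 and 1.26 CPM among *Fzd3* mutants and 2.45, 2.5 and 3.40 CPM among *Celsr3* mutants. *Smad7* was at 6.01, 6.93 and 6.12 CPM, 8.27, 6.74 and 6.53 CPM, and 5.98, 5.33 and 6.36 CPM in the same order. Against controls neither passed the threshold: in the *Fzd3* mutants the log2 fold changes were -0.41 for *Smad6* (limma adjusted p = 0.171) and 0.16 for *Smad7* (0.329). The *Celsr3* mutants gave 0.15 and -0.10 (1.0 for both), and 0.02 and -0.15 (0.999 for both) without replicate 4. For *Smad6*, 3 of 22 alternative fits gave the other sign there, among them that with a replicate block (-0.16). The direction of *Smad6* in the *Celsr3* mutants is thus not settled. The mutants did not overlap each other at either gene. *Smad6* lay lower in the *Fzd3* than in the *Celsr3* mutants (log2 fold change -0.56, 95% interval -1.02 to -0.09, limma adjusted p = 0.0694) and *Smad7* higher (0.26, 95% interval 0.01 to 0.51, limma adjusted p = 0.114; 0.31 and 0.113 without *Celsr3* mutant replicate 4), and neither passed. The value of *Smad6* passed without control replicate 3 (-0.56, limma adjusted p = 0.0439) and without *Fzd3* mutant replicate 1 (-0.72, 0.0454). It was -0.43 (0.213) without *Celsr3* mutant replicate 4 and -0.25 (0.367) with a replicate block. The limma adjusted p ranged from 0.0335 to 0.367 over 22 alternative fits.

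Of the 4 Id genes, *Id4* and *Id2* changed in the *Fzd3* mutants, in opposite directions. *Id4* (XLOC_007944, chr13:48261228-48266026) is known from progenitors of the embryonic cortex, where its protein restrains premature differentiation. It was at 46.3, 46.0 and 43.5 CPM among controls, at 25.1, 26.0 and 27.1 CPM among *Fzd3* mutants and at 36.7, 44.2 and 47.2 CPM among *Celsr3* mutants. The *Fzd3* mutants lay below all other libraries with a narrow spread, whereas the *Celsr3* mutants spanned the controls, with replicate 1 lowest and replicate 4 highest. The mean fell from 45.3 ± 1.53 to 26.0 ± 1.02 CPM (SD, n = 3), a difference of -42.5%, with a log2 fold change of -0.79 (SE 0.08, 95% interval -0.97 to -0.61, limma adjusted p = 8.38e-05). In the *Celsr3* mutants the mean was 42.7 ± 5.41 CPM and the log2 fold change -0.09 (95% interval -0.27 to 0.09, limma adjusted p = 1.0), or -0.17 without replicate 4 (0.999; 0.935 to 1 over 23 alternative fits). The direct comparison of the mutants gave -0.70 (95% interval -0.88 to -0.51, limma adjusted p = 0.000218), and -0.62 (0.000901) without *Celsr3* mutant replicate 4, with adjusted p from 4.84e-05 to 0.00934 over 23 alternative fits.

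On the opposite strand, *A330033J07Rik* shares 82 bases of exon with *Id4* and *Gm49291* shares 171. *Gm49291* was not analysed here. *A330033J07Rik*, chosen for this overlap after its values were seen, was at 5.90, 6.44 and 5.84 CPM among controls, 3.32, 3.17 and 2.69 CPM among *Fzd3* mutants and 5.88, 6.0 and 6.86 CPM among *Celsr3* mutants. It fell in the *Fzd3* mutants (log2 fold change -0.88, SE 0.11, limma adjusted p = 0.000249). Since strand use is not stated, reads of the shared bases cannot be told apart between these genes.

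*Id2* (XLOC_007031, chr12:25093799-25097140) is expressed in cortical neurons as well as in dividing cells. It was at 276, 250.2 and 259 CPM among controls, at 329.9, 308 and 305 CPM among *Fzd3* mutants and at 262, 268 and 257 CPM among *Celsr3* mutants. Every *Fzd3* mutant library was above every other library, and the *Celsr3* mutants lay within the control range. The mean rose from 262 ± 13.4 to 314 ± 13.7 CPM (SD, n = 3), by 20%, with a log2 fold change of 0.26 (SE 0.05, 95% interval 0.16 to 0.37, limma adjusted p = 0.00196). In the *Celsr3* mutants it was 0.00 (95% interval -0.10 to 0.11, limma adjusted p = 1.0), and 0.02 (0.999) without replicate 4. The *Fzd3* mutants against the *Celsr3* mutants gave 0.26 (95% interval 0.16 to 0.36, limma adjusted p = 0.00224), or 0.24 (0.0114) without *Celsr3* mutant replicate 4, with adjusted p from 0.00118 to 0.0221 over 23 alternative fits.

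*Id1* (XLOC_017692) and *Id3* (XLOC_022518), the Id genes most often used as BMP readouts, did not pass the threshold in any comparison. *Id1* was at 4.79 to 4.89 CPM among controls and 4.72 to 5.95 CPM among *Fzd3* mutants, where 2 of 3 libraries were above every control (log2 fold change 0.17, limma adjusted p = 0.385). *Id3* was at 2.46 to 4.09 CPM and 3.74 to 4.47 CPM (0.29, limma adjusted p = 0.274). In the *Celsr3* mutants *Id1* was at 4.33, 4.75 and 6.09 CPM and *Id3* at 3.26, 3.27 and 5.07 CPM, replicate 4 being the highest of all 9 libraries for both. Their log2 fold changes there were 0.04 and 0.18, and -0.09 and -0.00 without replicate 4, where the limma adjusted p of both was 0.999; over the alternative fits it ranged from 0.982 to 1 for *Id1* and from 0.964 to 1 for *Id3*. Between the mutants *Id1* was at 0.12 (0.532) and *Id3* at 0.11 (0.709), and without replicate 4 at 0.25 (0.19) and 0.30 (0.265). The part of the cell types whose markers were high in that library, the meningeal, pericyte, endothelial, progenitor and red blood cells, in these values was not tested.

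**Figure D2:**
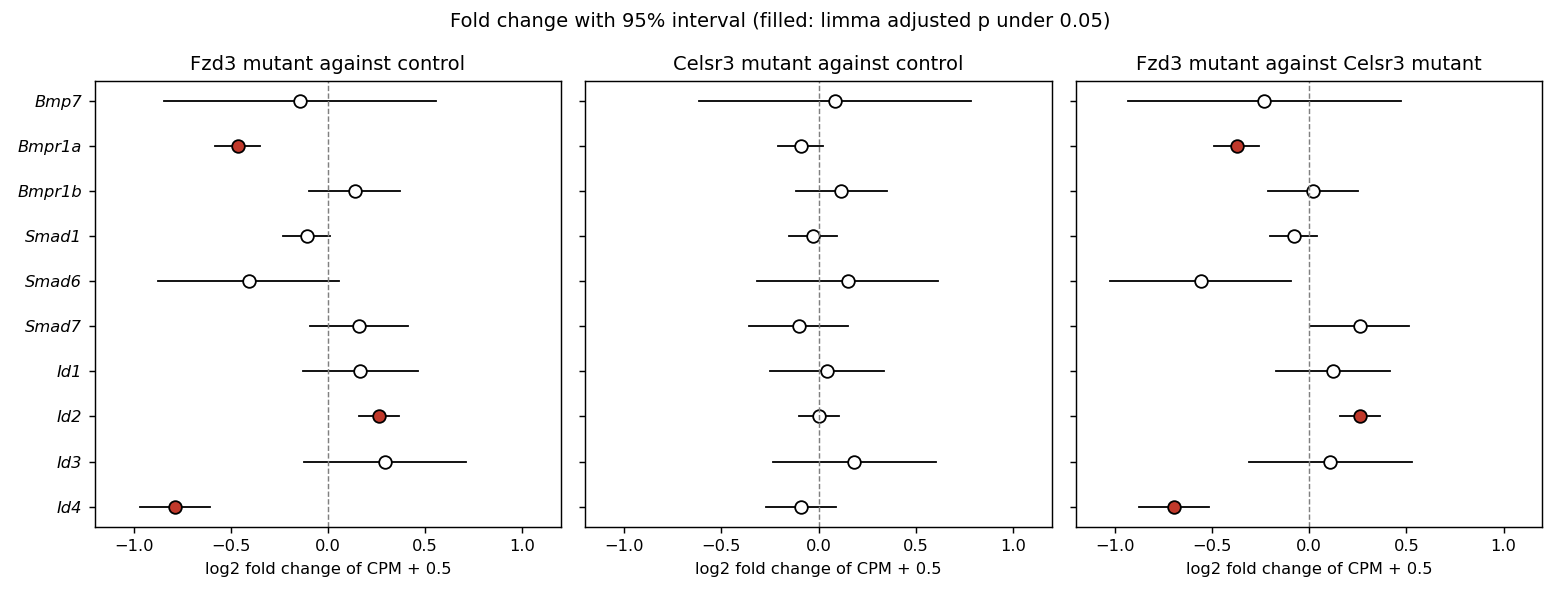
Log2 fold change of CPM + 0.5 for the 10 genes with 95% intervals, in each of 3 comparisons; filled points have a limma adjusted p under 0.05. The filled points are *Bmpr1a*, *Id2* and *Id4* in both comparisons of the *Fzd3* mutants, at -0.46, 0.26 and -0.79 against controls, and there is no filled point for the *Celsr3* mutants against controls.

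**Figure D3:**
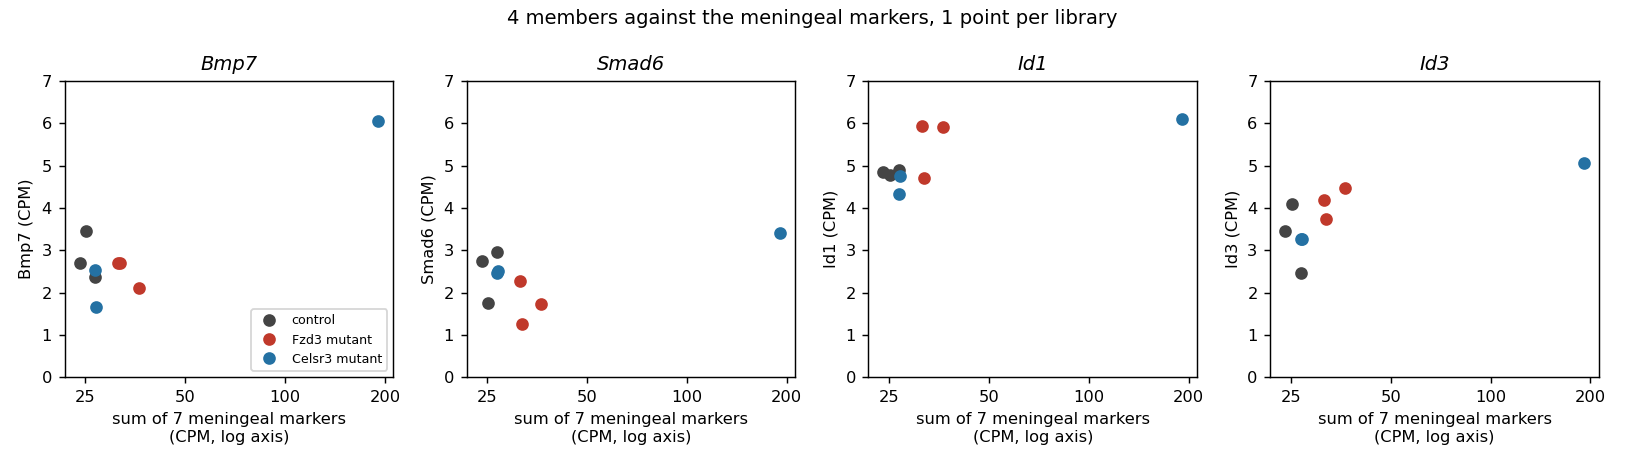
CPM of *Bmp7*, *Smad6*, *Id1* and *Id3* in each library against the summed CPM of 7 meningeal markers on a log axis. *Celsr3* mutant replicate 4 lies alone at 191 CPM of markers, and the other 8 libraries lie between 24.1 and 36.3 CPM.

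Per kb of exon, *Id2* made up 85.4% to 86.2% of the summed Id level in controls, 89.8% to 90.6% in *Fzd3* mutants and 83.8% to 87.7% in *Celsr3* mutants. *Id4* made up 9.13% to 9.95%, 4.36% to 5.09% and 7.79% to 9.77%. The ratio of *Id2* to *Id4* per kb was 8.58 to 9.43 in controls, 17.8 to 20.8 in *Fzd3* mutants and 8.58 to 11.3 in *Celsr3* mutants, so that the *Fzd3* mutant libraries lay apart from the other 6. This separation follows from *Id2* and *Id4* themselves, which each lay apart in those libraries, in opposite directions. The shares and the ratio add no evidence and carry no test of their own.

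The genes that followed each Id gene most closely over the 9 libraries were found by the root mean square (RMS) difference of their centred log2(CPM + 0.5) profiles, among genes averaging at least 5 CPM. For *Id4* these were *Spag5* (RMS difference 0.0499), *Cdk2* (0.0516) and *Kif15* (0.0518) of 11584 candidates, where the RMS spread of *Id4* itself was 0.364. *Spag5* was at 43.6, 46.9 and 41.9 CPM among controls, 24.7, 25.7 and 28.2 CPM among *Fzd3* mutants and 38.6, 42.7 and 46.4 CPM among *Celsr3* mutants; a likeness to *Id4* is what it was picked for. For *Id2*, with a spread of 0.132, they were *E130309F12Rik* (0.0322), *Sh3glb1* (0.0348) and *Pja2* (0.0349). *Id1*, with a spread of 0.154, was nearest to *1810011O10Rik* (0.0476), *Cadps2* (0.0658) and *Fkbp2* (0.0752). *Id3*, with a spread of 0.253, was nearest to *Rin2* (0.101), *Creg1* (0.108) and *Parvb* (0.117) of 11585 candidates.

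The promoters of the 3 genes that changed are shown because *Id4* and *Bmpr1a* fell together while *Id2* rose, and because SMAD proteins of the BMP branch are known to bind GC-rich elements such as GGCGCC. Sequences are from RefSeq on GRCm38.p6 and run 5′ to 3′ on the gene's strand, and the capitals mark GGCGCC. They come from the 250 bases before the start of the gene in RefSeq, without the bases that GENCODE M21 places in an exon before the coding part of a longer transcript. GENCODE M21, from which the gene positions above are taken, has 3 transcripts of *Id2*. They begin 1048 bases before the RefSeq start, at it and 5 bases after it. For *Bmpr1a* 4 transcripts begin 795 and 141 bases before the RefSeq start, 18 after it and far within the gene, and its 1 transcript of *Id4* begins 112 bases after. The *Id2* and *Bmpr1a* sequences thus lie after the first of several starts and before the others, inside the gene as GENCODE draws it. The *Id4* sequence is chr13:48260866-48261115 on the plus strand, that of *Bmpr1a* is chr14:34502688-34502796 on the minus strand and that of *Id2* is chr12:25096254-25096342 on the minus strand.
Id4: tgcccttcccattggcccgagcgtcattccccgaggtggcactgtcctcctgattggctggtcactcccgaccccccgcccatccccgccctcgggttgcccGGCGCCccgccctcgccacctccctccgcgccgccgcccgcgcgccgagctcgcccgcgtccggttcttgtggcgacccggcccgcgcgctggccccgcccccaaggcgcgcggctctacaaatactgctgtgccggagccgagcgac
Bmpr1a: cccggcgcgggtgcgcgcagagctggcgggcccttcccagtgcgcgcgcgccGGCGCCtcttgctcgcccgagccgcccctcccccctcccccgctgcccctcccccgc
Id2: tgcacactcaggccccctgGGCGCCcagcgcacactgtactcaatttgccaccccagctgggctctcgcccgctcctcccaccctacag

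GGCGCC, which is its own reverse complement, occurred 1 time in the 250 bases of each of these genes, starting 148 bases before the RefSeq start of *Id4*, 198 before that of *Bmpr1a* and 231 before that of *Id2*. It was in 3149 of all 32851 promoter windows of this length (9.59%). Windows rich in G and C hold it more often, and these were 75.6% (*Id4*), 78.8% (*Bmpr1a*) and 62.8% (*Id2*) G and C. Among windows within 5 percentage points of the same content the share with GGCGCC was 38.1%, 43.6% and 16.6%. RefSeq windows were used for 7 of the 10 genes, 9 windows in all. Windows of *Id1*, *Bmp7* and *Smad7* were not analysed here, so nothing is said of their promoters. The other windows, 3 of *Bmpr1b* and 1 each of *Id3*, *Smad1* and *Smad6*, had 0 copies. Their G and C content was not set beside windows of like content, so GGCGCC cannot be said to mark the genes that changed. CAGAC, the core SMAD element, searched also as GTCTG, was in 42.2% of all windows. It had 0 copies in the windows of *Id4*, *Bmpr1a* and *Id2*, 2 in that of *Id3* and 1, 1 and 0 in those of *Bmpr1b*. CCAAT, searched also as ATTGG, was in 33.8% of all windows, with 2, 1 and 3 copies in those of *Id4*, *Bmpr1a* and *Id2*. The windows of *Bmpr1b* had 1, 0 and 0 copies of it and that of *Smad1* had 1. CACGTG was in 6.02% of all windows and in 0 of the 9. The capitals were set on GGCGCC after the windows had been seen, and a match describes the letters only.

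Other genes of the pathway were read from fixed lists, and in the *Celsr3* mutants 0 genes passed in limma in any of them. At an unadjusted p under 0.05 the *Celsr3* counts were 2 of 4 co-receptors, 1 of 14 extracellular modulators, 2 of 10 tissue-specific bHLH factors and 0 in the others, and with voom weights 0 passed in each list. Of 12 other BMP ligands 4 were in the table; *Bmp2*, *Bmp4*, *Bmp6*, *Bmp8a*, *Bmp10*, *Gdf2*, *Gdf6* and *Gdf7* were not analysed here. In the *Fzd3* mutants 1 of the 4 rose and 0 fell (median log2 fold change 0.07). It was *Gdf5*, which encodes a ligand known from joint formation, at 0.828, 1.02 and 0.928 CPM among controls and 2.37, 2.70 and 2.06 CPM among *Fzd3* mutants (log2 fold change 1.01, SE 0.15, limma adjusted p = 0.000737). *Bmp3*, *Bmp8b* and *Bmp5* were at 3.71, 2.82 and 1.18 CPM on average in the controls and at 4.74, 2.33 and 1.03 CPM among *Fzd3* mutants. *Bmp5* was at 3.15 CPM in *Celsr3* mutant replicate 4 and between 0.465 and 1.49 CPM in the other 8 libraries.

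All 5 of 5 other BMP receptors were in the table, and in the *Fzd3* mutants 2 rose and 1 fell (median 0.25). Beside *Acvr1*, the type II receptor gene *Acvr2a* rose from 130.3 to 155 CPM (log2 fold change 0.25, limma adjusted p = 0.013) and *Acvr2b*, which encodes another type II receptor, fell from 13.1 to 9.21 CPM (-0.49, 0.0235). The main type II receptor *Bmpr2* was at 71.3, 90.1 and 68.0 CPM among controls and 66.9, 64.6 and 70.4 CPM among *Fzd3* mutants, which overlap (limma adjusted p = 0.183). Without control replicate 2 the counts were 1 up and 0 down, without *Fzd3* mutant replicate 1 there was 1 up, and without *Fzd3* mutant replicate 2 there were 0 down. Of 6 co-receptors 4 were in the table (*Hjv* and *Eng* were not analysed here), of which *Rgma*, a co-receptor that also guides axons, rose from 55.2 to 81.1 CPM (0.55, SE 0.06, limma adjusted p = 0.000149; median of the list 0.33). Without *Celsr3* mutant replicate 4, or replicate 2, 2 of the 4 rose. *Neo1*, *Rgmb* and *Tgfbr3* were at 427, 46.5 and 0.285 CPM among controls and 438, 50 and 0.935 CPM among *Fzd3* mutants.

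Of 3 other SMAD genes of the branch 2 were in the table, and *Smad9* was not analysed here. *Smad5*, whose protein acts beside SMAD1, fell from 170.1 to 143 CPM among *Fzd3* mutants (log2 fold change -0.25, SE 0.06, limma adjusted p = 0.0131), and *Smad4*, the shared partner, was at 127 and 116 CPM (-0.14, 0.0796). The median of both was -0.19. The count of 1 became 0 without control replicate 2, *Fzd3* mutant replicate 1 or *Fzd3* mutant replicate 2, and 2 without control replicate 3. Against the *Celsr3* mutants both were lower, and 0 were without *Celsr3* mutant replicate 4.

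Extracellular modulators, mostly proteins that bind BMPs and keep them from their receptors, were in the table for 14 of 19 genes; *Chrdl2*, *Fstl3*, *Sostdc1*, *Sost* and *Tll1* were not analysed here. In the *Fzd3* mutants 6 rose and 3 fell (median 0.08). The BMP antagonist *Grem1* rose from 2.80 to 6.95 CPM (log2 fold change 1.19, SE 0.21, limma adjusted p = 0.0017) and the antagonist *Nbl1* from 1.11 to 2.18 CPM (0.75, 0.0238). *Tll2*, which encodes a protease of the tolloid family, fell from 1.15 to 0.423 CPM (-0.87, 0.00614). In 2 further antagonists often cited in the forebrain, chosen after their values were seen, *Nog* was at 3.39, 3.79 and 2.41 CPM among controls and 1.58, 1.84 and 2.75 CPM among *Fzd3* mutants (-0.54, 0.0573), and *Chrd* rose from 9.45 to 12.2 CPM (0.35, 0.0156). The 3 lower calls became 1 without *Celsr3* mutant replicate 2 or 4, control replicate 1 or 2, or *Fzd3* mutant replicate 1 or 2, and the 6 higher calls became 4 without control replicate 1 or 2 or *Fzd3* mutant replicate 2.

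Intracellular modulators of SMAD activity were all in the table (13 of 13), and in the *Fzd3* mutants 5 fell and 1 rose (median -0.03). *Tgif1* and *Tgif2*, which encode homeodomain corepressors of SMAD complexes, fell from 2.67 to 1.09 CPM (log2 fold change -1.0, SE 0.21, limma adjusted p = 0.00527) and from 35.5 to 17.9 CPM (-0.97, SE 0.08, 1.52e-05). *Tob1* and *Tob2*, antiproliferative genes, fell by 0.35 and 0.31 on the log2 scale (0.0109 and 0.0189). The 5 lower calls became 3 without control replicate 2 or *Fzd3* mutant replicate 2. The single higher call, *Zeb2* (SMAD-interacting protein), was at 520 CPM among controls and 601 CPM among *Fzd3* mutants (0.21, 0.0321), and the higher count became 0 without control replicate 3 or *Fzd3* mutant replicate 1 or 3 and 2 without control replicate 2. The ubiquitin ligase genes *Smurf1* and *Smurf2* did not pass, at 93.7 and 101 CPM among controls and 97.2 and 98.4 CPM among *Fzd3* mutants.

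Of 7 other BMP target genes 2 were in the table; *Msx1*, *Msx2*, *Atoh8*, *Gata2* and *Gata3* were not analysed here. *Hey1*, which also answers to Notch, fell from 19.8 to 11.9 CPM among *Fzd3* mutants (log2 fold change -0.72, SE 0.09, limma adjusted p = 0.000321), and *Junb* was at 1.07 and 1.22 CPM (0.14, 0.518; median of both -0.29). In the related TGF-beta and activin branch, which signals through SMAD2 and SMAD3, 13 of 14 genes were in the table (*Nodal* was not analysed here), and 5 rose and 1 fell (median 0.14). *Inhba*, the activin A subunit gene, rose from 3.96 to 7.63 CPM (0.86, limma adjusted p = 0.00115), and the receptor genes *Acvr1c* and *Tgfbr2* rose by log2 fold changes of 0.69 (0.0184) and 0.50 (0.0301). The ligand gene *Tgfb3* fell from 7.08 to 4.94 CPM (-0.48, 0.0107). The 5 higher calls became 3 without control replicate 1, control replicate 2 or *Fzd3* mutant replicate 3, and 2 without control replicate 3 or *Fzd3* mutant replicate 1, while the lower count became 3 without *Celsr3* mutant replicate 1 or *Fzd3* mutant replicate 3.

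**Figure D4:**
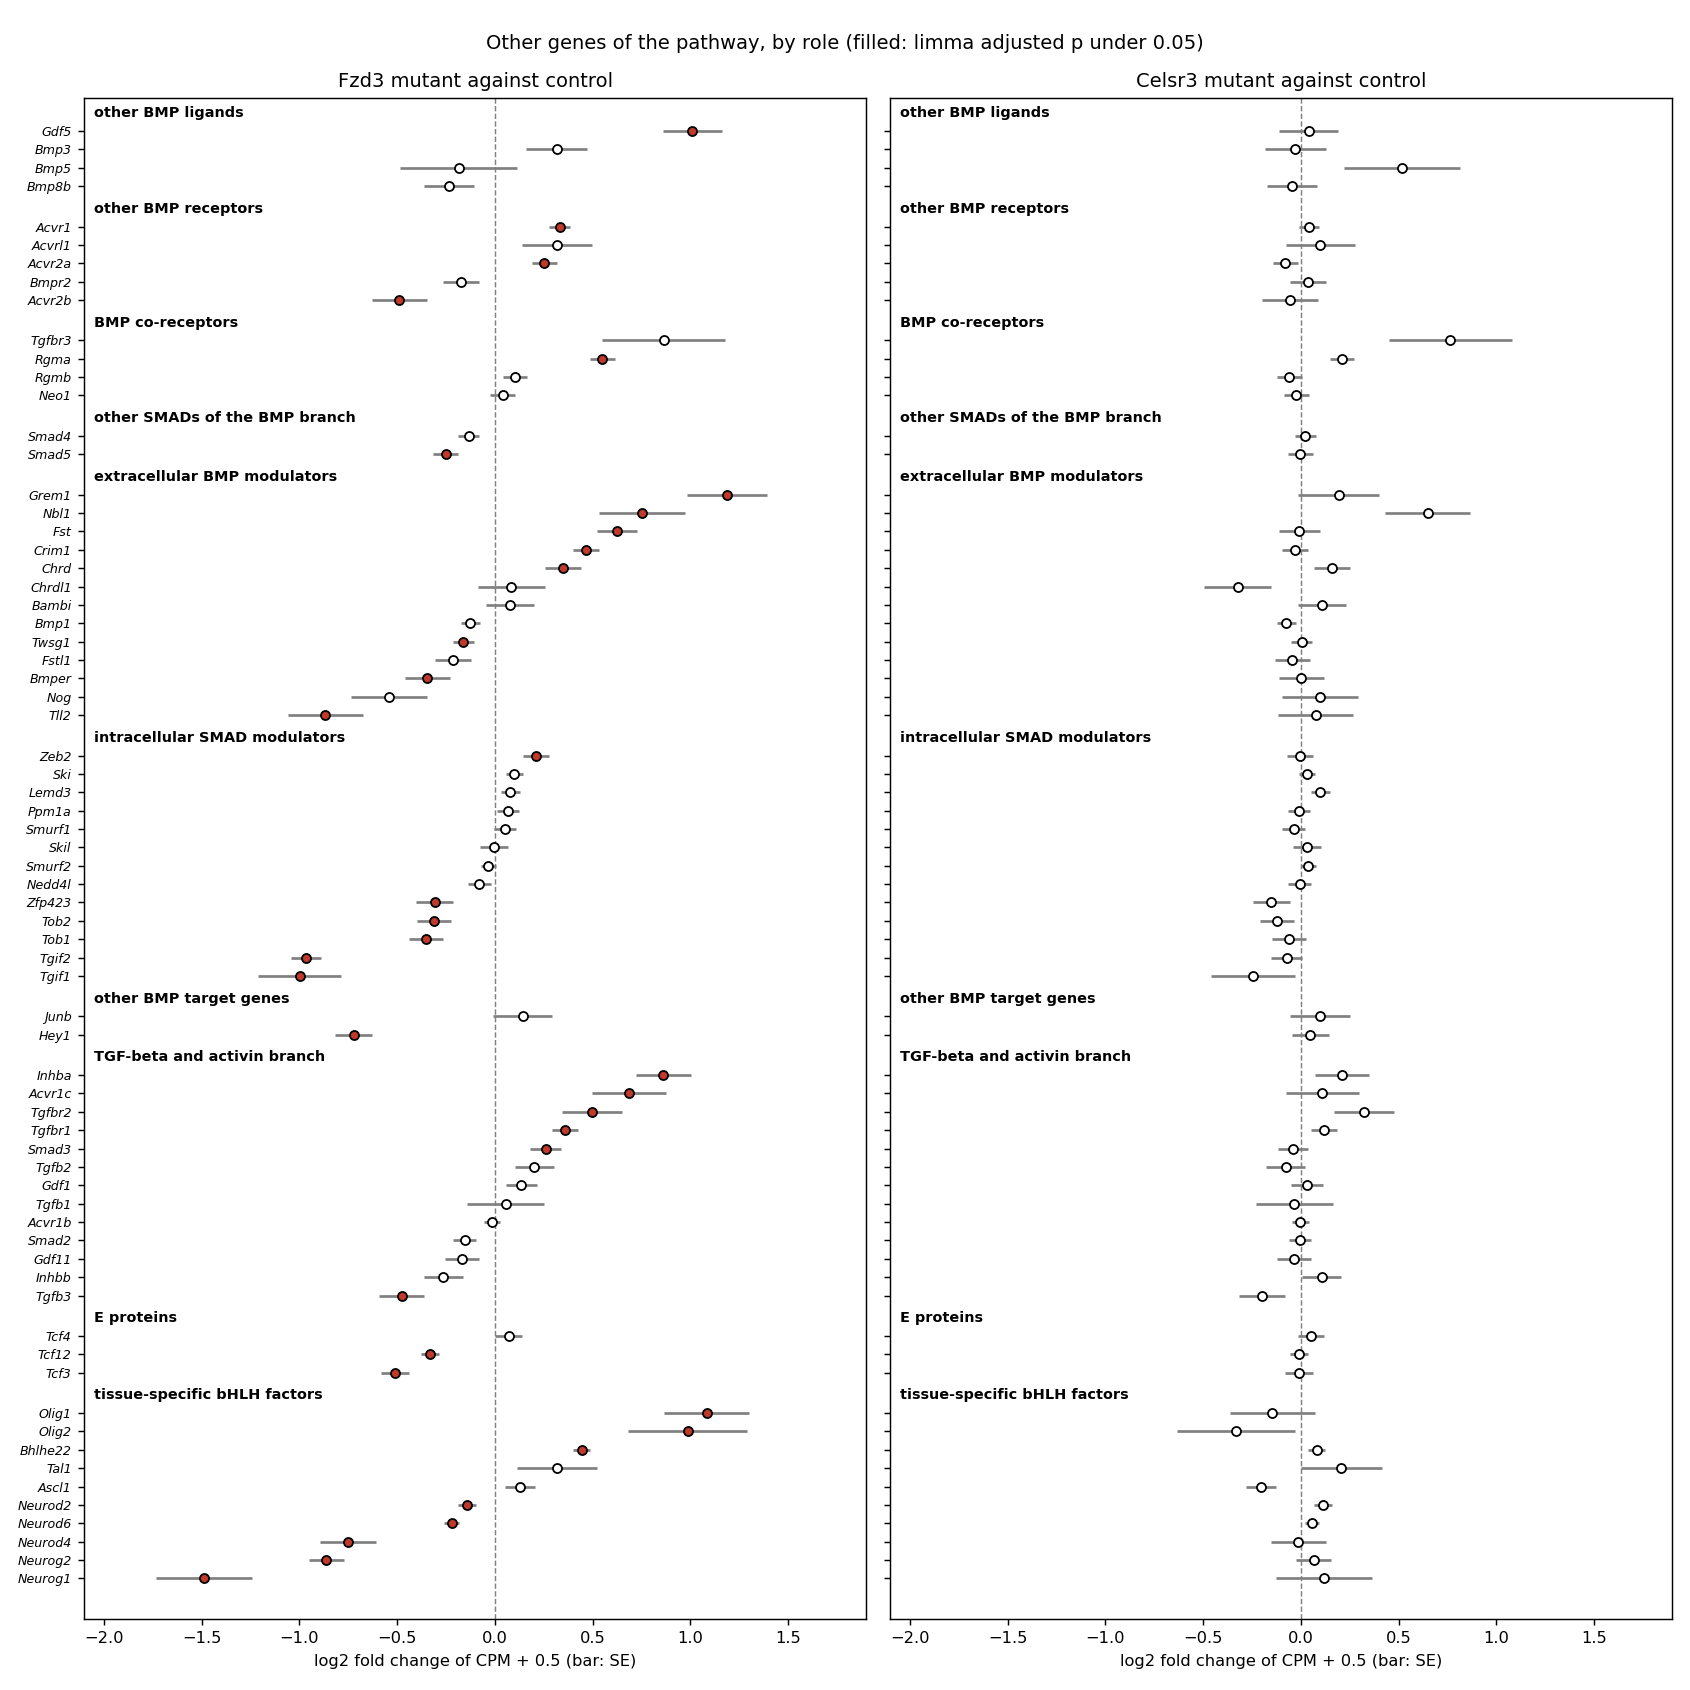
Log2 fold change of CPM + 0.5 with its SE for the other genes of the pathway, by role, in the *Fzd3* mutants (left) and the *Celsr3* mutants (right) against the same controls; filled points have a limma adjusted p under 0.05, and 13 of the 14 extracellular modulators are drawn. The filled points of the *Fzd3* mutants reach from -1.49 (*Neurog1*) to 1.19 (*Grem1*), and the right side has 0 filled points.

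The partners of the Id proteins were read in the same way. Of the 3 E protein genes, whose products Id proteins bind, 2 fell and 0 rose in the *Fzd3* mutants (median -0.33). *Tcf3* fell from 116 to 80.7 CPM (log2 fold change -0.51, SE 0.07, limma adjusted p = 0.000496) and *Tcf12* from 223 to 177 CPM (-0.33, 0.000498), and *Tcf4* was at 968 and 1013 CPM (0.07, 0.47). Of 11 tissue-specific bHLH genes 10 were in the table (*Neurod1* was not analysed here), and 5 fell and 3 rose (median -0.01). The proneural gene *Neurog1* fell from 2.60 to 0.602 CPM (-1.49, SE 0.25, limma adjusted p = 0.00126) and *Neurog2* from 81.6 to 44.7 CPM (-0.86, SE 0.09, 8.46e-05). *Olig1* and *Olig2*, which mark oligodendrocyte precursors, rose by log2 fold changes of 1.08 (0.00375) and 0.98 (0.0309). *Olig2* in *Fzd3* mutant replicate 3, at 5.23 CPM, lay within the control range of 3.66 to 5.34 CPM. The 3 higher calls of the bHLH list became 2 without control replicate 1 or 2 or *Fzd3* mutant replicate 1 or 2.

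Markers of dividing and progenitor cells moved in the direction of *Id4* and *Bmpr1a*. All 9 of 9 markers of cycling cells fell in the *Fzd3* mutants (median -0.75), among them *Ccnb1* (log2 fold change -0.89), *Aurkb* (-0.84), *Mki67* (-0.81) and *Top2a* (-0.79), the most abundant. Their sum was 924, 991 and 839.6 CPM among controls, 514, 549 and 602 CPM among *Fzd3* mutants and 822, 895 and 952 CPM among *Celsr3* mutants. Of 6 markers of intermediate progenitors, which divide in the subventricular zone to give neurons, 5 fell and 0 rose (median -0.64), with sums of 593, 614 and 530.2, then 395, 408 and 455, then 571, 640.4 and 656 CPM. *Neurog2*, *Btg2*, *Eomes* and *Gadd45g* changed most, by -0.86, -0.76, -0.67 and -0.61, and *Elavl4* was the most abundant. Of 11 markers of radial glia 7 fell (median -0.37), with *Pax6* at -0.70, *Nes* at -0.67, *Hes5* at -0.66 and *Vim* at -0.62. In that list 1 marker rose, *Tnc* (0.39, limma adjusted p = 0.0146), a call that was lost without control replicate 1 or *Fzd3* mutant replicate 1. The radial glial sums were 1550.2, 1623 and 1612 CPM among controls, 1316, 1372 and 1240.4 CPM among *Fzd3* mutants and 1434, 1459 and 1507 CPM among *Celsr3* mutants. In these bulk samples fewer cells of a type and less RNA per cell cannot be told apart. The part of these cell types in the lower *Id4* and *Bmpr1a* was not tested. Of these 3 lists, 0 markers were at 0 CPM in any library.

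Markers of neurons were read for *Id2*, which rose. Of 10 markers of cortical excitatory neurons 8 fell and 1 rose in the *Fzd3* mutants (median -0.31), and 6 to 9 fell with 1 library left out. The deep-layer markers *Sox5*, *Bcl11b* and *Fezf2* fell by 0.52, 0.46 and 0.44 on the log2 scale. These markers moved in the libraries in which *Id2* was high, and their part in *Id2* was not tested. Of 9 interneuron markers 1 rose, *Npy*, which encodes a neuropeptide (1.94, limma adjusted p = 2.46e-06; median of the list -0.01), and 2 did without *Fzd3* mutant replicate 1 or 3; *Dlx1* was the most abundant.

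Of 11 endothelial markers in the table (*Slco1a4* was not analysed here) 5 rose (median 0.37), with sums of 194, 195 and 197 CPM among controls, 255, 251 and 238 CPM among *Fzd3* mutants and 208, 188 and 252 CPM among *Celsr3* mutants. *Flt1* (0.85), *Kdr* (0.58) and *Cldn5* (0.53) changed most, and *Ramp2* was the most abundant. The count was 7 without *Celsr3* mutant replicate 4 and 3 without control replicate 1 or 2 or *Fzd3* mutant replicate 2 or 3. Of 7 pericyte markers 1 rose, *Abcc9* (0.22, limma adjusted p = 0.016; median 0.23); 2 rose without *Celsr3* mutant replicate 4, 3 without *Fzd3* mutant replicate 3 and 0 without control replicate 2. Of the 7 meningeal markers 0 passed in limma in the *Fzd3* mutants (0 with voom weights, 1 at an unadjusted p under 0.05, median 0.15), and 2 rose without *Celsr3* mutant replicate 4 and 1 without *Fzd3* mutant replicate 1. The endothelial sums were higher in the *Fzd3* mutants, as *Id2* was, and their part in *Id2* was not tested.

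Of 5 oligodendrocyte precursor markers 3 rose in the *Fzd3* mutants (median 0.73), with sums of 29.4, 27.6 and 39.1 CPM among controls, 71.2, 62.6 and 38.0 CPM among *Fzd3* mutants and 36.9, 26.9 and 32.2 CPM among *Celsr3* mutants. *Fzd3* mutant replicate 3 lay within the control range, unlike its 2 companions, and 1 rose without control replicate 1 or 2 or *Fzd3* mutant replicate 1 or 2. Of 4 early astrocyte markers in the table (*Gfap*, *Aqp4* and *S100b* were not analysed here) *Aldh1l1* and *Slc1a2* rose and *Aldoc* fell (0.58, 0.36 and -0.40; median 0.28), and the higher count was 0 without control replicate 1 or 2 or *Fzd3* mutant replicate 1 or 2, and 1 without *Fzd3* mutant replicate 3 or *Celsr3* mutant replicate 1 or 2. Of 8 microglial markers 2 rose, *Csf1r* (0.63) and *C1qa* (0.46; median 0.39), and the count was 5 without *Fzd3* mutant replicate 3 and 1 without control replicate 2 or *Fzd3* mutant replicate 1. Of 11 markers of choroid plexus and cortical hem 2 were in the table, and *Rspo2* rose from 3.04 to 10.4 CPM (1.64, limma adjusted p = 0.000149), whereas *Rspo3* was at 27.3 and 21.1 CPM (-0.36, 0.0504; median of both 0.64); the lower count of this list became 1 without control replicate 3, *Fzd3* mutant replicate 3 or *Celsr3* mutant replicate 1 or 2. Among 7 red blood cell markers of 10 that were in the table, 1 fell, *Hbb-y* (-1.05, limma adjusted p = 0.0331; median 0.11), and 0 did without any 1 of control replicates 1 and 2 or the 3 *Fzd3* mutants, while 1 rose without *Fzd3* mutant replicate 3; the adult globin genes are near-identical in sequence, so their separate values are uncertain. In the *Celsr3* mutants 0 markers of any list passed in limma, and 0 with voom weights; at an unadjusted p under 0.05 the counts ran from 0 (oligodendrocyte precursor and red blood cell markers) to 4 (of 9 interneuron markers).

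**Figure D5:**
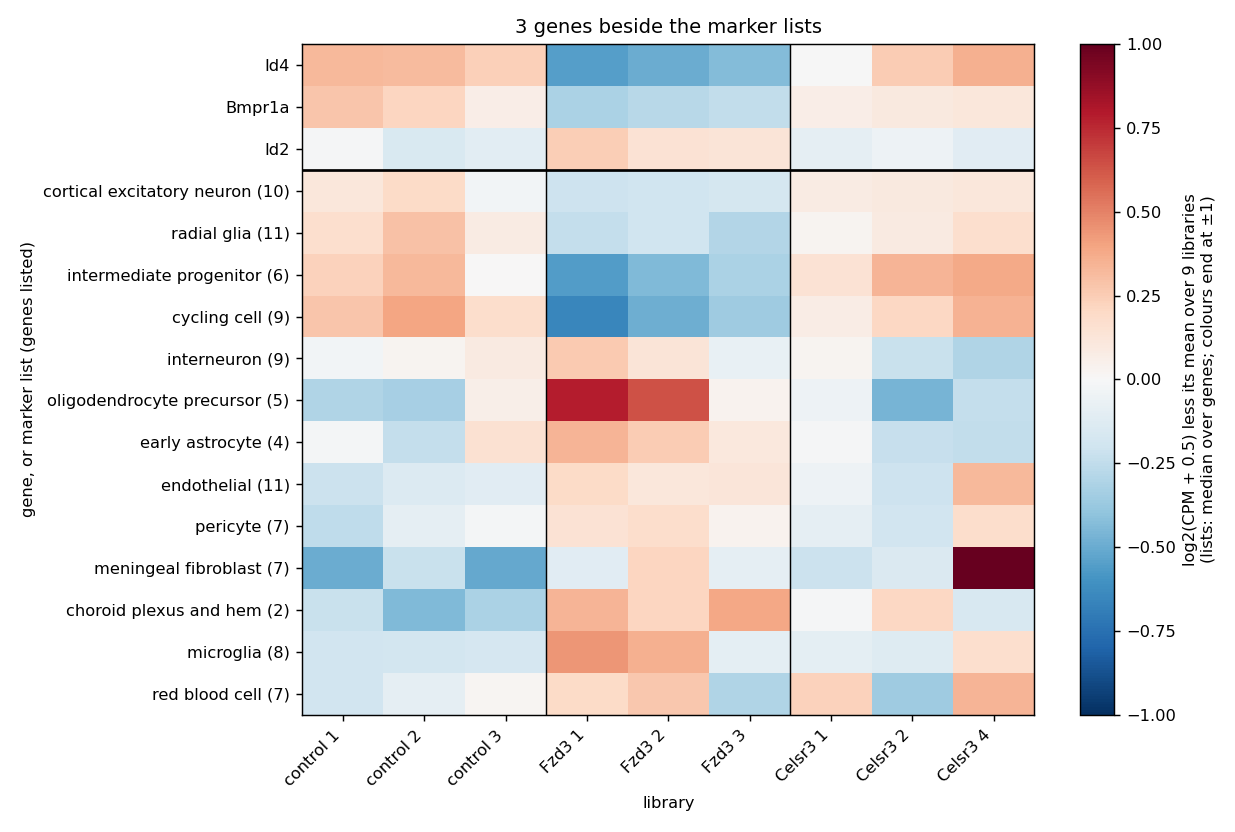
Log2(CPM + 0.5) of *Id4*, *Bmpr1a* and *Id2*, and the median over each marker list, less the mean over the 9 libraries, with 1 column per library and the number of genes per list in brackets. *Id4* is between -0.55 and -0.44 and the cycling list between -0.65 and -0.36 in the *Fzd3* mutants, and the meningeal list in *Celsr3* mutant replicate 4, at 2.23, lies beyond the end of the colours at 1.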

How the data were processed

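RNA of mouse cortex was measured in 9 libraries, 3 per genotype. The authors deposited CPM values. Columns totalled 990141 to 1012199. The higher totals lie above what reads scaled only to their own sum can reach. A further scaling factor per library, or another total, may thus have been used, and which of them was not tested. The submitters' notes name FastQC, TopHat, TopHat2, Bowtie, Cufflinks 2.1.1, edgeR 2.12, GRCm38 and GRCh37 with no order. Counting and strand use are not stated. Differences were fitted with limma 3.58.1 under R 4.3.3, by lmFit, contrasts and a trended eBayes on log2(CPM + 0.5) of 14670 genes, without a block; p-values were adjusted after Benjamini and Hochberg and read at 0.05. Genes had to average 0.5 CPM, which removed 0 genes (lowest mean 0.54 CPM). The fit was tested on simulated data. Tables, sequences and figures were made with matplotlib 3.10.9, pandas 2.3.3 and numpy 2.4.6 under Python 3.11.15. GENCODE M21 on GRCm38 gave positions and exon lengths for 14420 of 14670 genes (98.3%), 634 of them by an older symbol, and need not be the annotation the authors used.

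The genes and lists were chosen with earlier results of these data known. All 10 genes were named, and from each list the counts with up to 4 genes: those past the threshold with the largest change or, where fewer than 2 passed, the most abundant; *Nog*, *Chrd*, *Smurf1*, *Smurf2*, *Bmpr2*, *Zeb2*, *Tnc*, *Tcf4* and *A330033J07Rik* were added after their values were seen. *Neurod2*, *Neurod6*, *Neurog2*, *Olig1* and *Olig2* stand in the bHLH list and a marker list, and *Cspg4* in 2 marker lists. In the lists, 2 genes are counted and summed but not reported singly here. Alternatives covered the pseudocount, the filter, the scaling, the libraries and model of the fit, a replicate block, GC content and length, and leaving out each library. The number of columns not used was 0.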

Additional observations from a re-analysis of the deposited data

How the results depend on the processing

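The 30 results (10 genes in 3 comparisons) were recomputed in 23 alternative fits, or 22 for *Id3*, *Bmp7* and *Smad6*, which a filter at a mean of 5 CPM leaves out. *Id4*, *Bmpr1a* and *Id2* passed the threshold in 23 of 23 in both comparisons of the *Fzd3* mutants. Against controls *Id4* ranged from -0.82 to -0.75 (limma adjusted p 1.41e-05 to 0.00572), *Bmpr1a* from -0.52 to -0.42 (2.59e-05 to 0.00531) and *Id2* from 0.23 to 0.30 (0.000702 to 0.0161). The call changed for 2 of the 30: *Bmpr1b* and *Smad6*, as given with the leave-one-out fits above, and *Smad6* also after quantile normalization (-0.67, 0.0335) in the comparison of the mutants. Among results past the threshold 0 reversed, and 10 that did not pass changed sign in at least 1 fit. Fitting the replicate number as a block, 29 genes of the table passed in the *Celsr3* mutants, 2101 between the mutants and 3629 in the *Fzd3* mutants, and the counts among the 10 genes were 0, 3 and 3. With the block and a correction for GC content and length the counts of all genes were 28 for the *Celsr3* mutants and 2521 between the mutants, and an ordinary linear model gave 24 for the *Celsr3* mutants; the causes were not tested. Whether the numbers pair samples is not stated. Same-numbered libraries of different genotypes had correlations of their deviations between -0.199 and 0.192 across genes, which are not independent replicates. Differently numbered ones had correlations between -0.163 and 0.188. With so few libraries per genotype these values cannot decide whether a litter or batch was shared. *Celsr3* mutant replicate 4 is alone in its block. Leaving out each library in turn gave 2960 to 4314 genes for the *Fzd3* mutants, 39 to 53 for the *Celsr3* mutants and 2973 to 4471 between the mutants. A *Celsr3* group without a library keeps 2 samples, which the fit assumes to vary like the others. Weights from voom, added after the data were seen and computed from the CPM steps, gave 4120, 50 and 4329 genes. A fit with edgeR had been listed as an alternative and was not run.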
